A study of Homo sapiens with 3 samples.

Results

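The subject is the genes for 42 subunits of histone deacetylase co-repressor complexes, taken from a fixed list and looked up among 19970 protein-coding RefSeq genes on chromosomes 1 to 22 and X; all 42 were found. They comprise 14 SIN3 subunits, 2 histone chaperones shared by SIN3 and NuRD, 10 NuRD subunits, 6 CoREST subunits, 4 NCoR subunits, 4 CtBP and TLE co-repressors and 2 subunits of the mitotic deacetylase complex MiDAC. Acetylation of histone H3 at lysine 27 (H3K27ac) had been profiled by CUT&Tag, which tethers a transposase to antibody-bound chromatin, in the ovarian carcinoma line A2780, which is of human origin. The BPP library was made with an H3K27ac antibody from A2780 cells treated with BPP, described in the series design as a peptide that competes at the site where BIN2 is phosphorylated. As control, the CTR library was made with the same kind of antibody; the design names a TAT peptide as comparator for RNA-seq, and the treatment of the CTR cells in CUT&Tag is not stated there. The IgG library, from A2780 cells with no treatment named in its title, measured background. Each group was 1 library, made from frozen and thawed cells, so differences between groups lack a replicate check and no test was run.

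Class I histone deacetylases remove acetyl groups from histones mostly as parts of larger complexes. The SIN3, NuRD, CoREST, NCoR and MiDAC scaffolds hold the deacetylase and bring readers, demethylases or remodelling ATPases to the same site, and CtBP and TLE proteins link DNA-bound repressors to such complexes. H3K27ac itself marks active promoters and enhancers, so a peak at these genes reports on chromatin at the co-repressor genes, not on where the co-repressor proteins bind.

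On the chromosomes used, the lists held 17841 BPP peaks, 14836 CTR peaks and 7701 IgG peaks, with depth unknown. A gene is called marked in a list when a peak overlaps, by at least 1 bp, a window of 1 kb on either side of either end of its RefSeq span. For each peak the authors gave a fold, which is a ratio over an undescribed background, and a −log10 q; both serve here to describe or filter peaks of 1 list. Values of different lists printed together are not read as a change, and the threshold of calling can hide a peak that is only slightly weaker.

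Sequences around the transcription start are shown for members whose start-side peak lay in 1 H3K27ac list only (the 3 with the highest −log10 q in each list). Sequences are also shown for the pair marked in both lists whose lower start-side −log10 q of the 2 lists was highest. They are RefSeq promoters of GRCh38.p14, 250 bases before to 50 after the start, 5′ to 3′ on the gene's strand. Capitals mark matches on either strand to the motif CCAAT, the TATA box TATAAA, the GC box GGGCGG, the ETS motif CCGGAAG, the E-box CACGTG, the palindromic NRF1 motif and the cyclic AMP response element (CRE) TGACGTCA.
BPP only, start-side peak:
ARID4A (chr14:58298305-58298604, plus strand): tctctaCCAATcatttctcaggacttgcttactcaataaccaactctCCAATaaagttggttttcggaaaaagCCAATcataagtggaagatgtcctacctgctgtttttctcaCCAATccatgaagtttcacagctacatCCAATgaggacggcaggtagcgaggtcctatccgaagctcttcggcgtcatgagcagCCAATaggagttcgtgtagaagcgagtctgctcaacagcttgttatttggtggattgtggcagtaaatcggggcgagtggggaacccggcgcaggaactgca
GATAD2B (chr1:153922923-153923222, minus strand): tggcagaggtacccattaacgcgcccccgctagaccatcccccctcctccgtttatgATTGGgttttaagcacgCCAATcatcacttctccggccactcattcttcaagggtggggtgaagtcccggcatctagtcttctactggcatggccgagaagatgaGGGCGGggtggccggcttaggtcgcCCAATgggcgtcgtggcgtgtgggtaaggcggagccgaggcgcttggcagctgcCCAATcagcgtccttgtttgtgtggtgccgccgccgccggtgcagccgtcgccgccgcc
CHD4 (chr12:6606402-6606701, minus strand): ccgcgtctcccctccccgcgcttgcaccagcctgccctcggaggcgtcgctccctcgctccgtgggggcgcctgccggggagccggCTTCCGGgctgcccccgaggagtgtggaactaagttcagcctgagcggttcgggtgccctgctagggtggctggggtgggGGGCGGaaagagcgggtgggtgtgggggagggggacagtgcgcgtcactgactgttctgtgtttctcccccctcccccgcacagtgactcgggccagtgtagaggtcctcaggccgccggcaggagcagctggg
CTR only, start-side peak:
SUDS3 (chr12:118376305-118376604, plus strand): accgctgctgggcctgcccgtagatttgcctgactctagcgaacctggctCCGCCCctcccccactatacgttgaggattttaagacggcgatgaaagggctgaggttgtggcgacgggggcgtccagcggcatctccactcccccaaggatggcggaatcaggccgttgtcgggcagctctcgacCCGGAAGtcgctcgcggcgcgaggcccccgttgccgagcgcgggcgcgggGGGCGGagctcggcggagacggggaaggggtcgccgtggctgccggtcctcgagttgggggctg
KDM1A (chr1:23019218-23019517, plus strand): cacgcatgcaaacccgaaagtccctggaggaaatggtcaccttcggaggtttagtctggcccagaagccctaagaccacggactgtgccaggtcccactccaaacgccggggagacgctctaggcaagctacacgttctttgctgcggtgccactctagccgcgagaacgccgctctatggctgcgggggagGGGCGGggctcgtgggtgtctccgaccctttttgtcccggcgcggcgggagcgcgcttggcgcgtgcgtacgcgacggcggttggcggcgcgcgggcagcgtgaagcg
DNTTIP1 (chr20:45791704-45792003, plus strand): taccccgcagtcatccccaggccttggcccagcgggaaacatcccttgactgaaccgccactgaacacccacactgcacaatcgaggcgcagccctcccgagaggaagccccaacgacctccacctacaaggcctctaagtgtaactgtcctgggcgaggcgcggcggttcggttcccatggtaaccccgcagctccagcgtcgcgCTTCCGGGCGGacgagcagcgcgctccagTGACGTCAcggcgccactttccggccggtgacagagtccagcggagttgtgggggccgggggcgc
Both lists:
RBBP4 (chr1:32650958-32651257, plus strand): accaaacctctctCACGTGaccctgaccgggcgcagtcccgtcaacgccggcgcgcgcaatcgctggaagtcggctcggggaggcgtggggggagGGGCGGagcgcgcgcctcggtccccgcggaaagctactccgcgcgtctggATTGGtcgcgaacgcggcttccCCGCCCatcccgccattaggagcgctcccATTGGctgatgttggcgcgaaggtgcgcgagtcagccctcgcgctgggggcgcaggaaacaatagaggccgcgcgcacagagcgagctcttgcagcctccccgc
RCOR3 (chr1:211259116-211259415, plus strand): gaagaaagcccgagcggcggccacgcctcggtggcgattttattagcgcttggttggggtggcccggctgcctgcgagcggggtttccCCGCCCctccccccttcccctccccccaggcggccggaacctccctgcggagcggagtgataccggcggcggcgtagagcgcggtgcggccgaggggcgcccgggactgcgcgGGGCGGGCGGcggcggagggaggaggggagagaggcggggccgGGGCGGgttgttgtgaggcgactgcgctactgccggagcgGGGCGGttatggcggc

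The BPP peak covered 300 of these bases at ARID4A, 221 at GATAD2B and 38 at CHD4. The CTR peak covered 263 bases at SUDS3, 38 at KDM1A and 215 at DNTTIP1. At RBBP4 peaks of both lists covered all 300 bases, whereas at RCOR3 the BPP peak covered 105 and the CTR peak 300. ARID4A held 6 CCAAT matches and GATAD2B 4; this was seen after the sequences were searched, and at least 6 copies occurred in 18 of 15811 promoters (0.114%) and at least 4 in 195 (1.23%). RCOR3 held 5 GC boxes, some overlapping each other, and the GC box and ETS matches of DNTTIP1 also overlapped. SUDS3 and CHD4 held an ETS match each, and RBBP4 an E-box beside 2 CCAAT matches.

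A RefSeq promoter was found for 39 of the 42 members, all except SAP18, CHD5 and RCOR2. The GC box occurred in 30 of 39 (76.9%), against 58.3% of 15811 promoters of protein-coding genes. CCAAT occurred in 17 of 39 (43.6%, against 36.4%), the ETS motif in 8 (20.5%, against 14.1%), the E-box in 4 (10.3%, against 8.82%) and TATAAA in 2 (5.13%, against 9.75%). The CRE motif was found at DNTTIP1 alone among members (2.56%, and likewise 2.56% of all), and the NRF1 motif at none of the 39 (1.77% of all). Median GC content was 69.7% in the members and 62.7% in all promoters. It was 69.5% for the 12 members marked in both lists, 69.7% for the 11 in BPP only, 69.3% for 5 in CTR only and 75.0% for 11 in neither.

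Of the 42 members, 23 had a gene-end peak in BPP (54.8%, 95% Wilson interval 39.9 to 68.8), where 30.6% of all protein-coding genes had one. CTR marked 18 members (42.9%, 29.1 to 57.8), against 31.2% of all genes. IgG marked 3 members (7.14%, 2.46 to 19.0), against 2.13% of all genes. These intervals cover counting error only and treat genes as independent. They do not cover the choice of members, which was made with earlier results of these data known. Taken by list, 12 members were marked in both H3K27ac lists (28.6% of members, against 23.6% of all genes), 11 in BPP only (26.2%, against 7.03%), 6 in CTR only (14.3%, against 7.57%) and 13 in neither. The 29 marked members (69.0%, against 38.2% of all genes) divided into 41.4% shared, 37.9% BPP only and 20.7% CTR only, and the 7626 marked genes of the genome into 61.8%, 18.4% and 19.8%. Peaks of both lists stood at the same gene end in 11 of the 42 members (26.2%), against 23.3% of all genes. Among genes marked in both lists, that was 11 of 12 members and 4647 of 4710 genes of the genome. No H3K27ac peak at an end or inside the span was found for 5 members (11.9%), against 47.7% of all genes.

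Within 1 kb of any RefSeq start, which 39 members have, BPP marked 21 (53.8%, against 32.3% of the 15811 genes with a start). CTR marked 18 (46.2%, against 33.9% of all). IgG marked 1 member (2.56%, against 1.61% of all). By this rule 12 members were shared (30.8%, against 25.9% of all), 9 were in BPP only (23.1%, against 6.42%) and 6 in CTR only (15.4%, against 8.08%). The excess of BPP-only over CTR-only members depended on which peaks were counted. With the 5000 peaks of highest −log10 p from each list, 2 of the 42 members were in BPP only, 4 in CTR only and 6 in both. Of all genes, 4.40%, 5.84% and 10.2% were so marked under this setting.

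**Figure D1:**
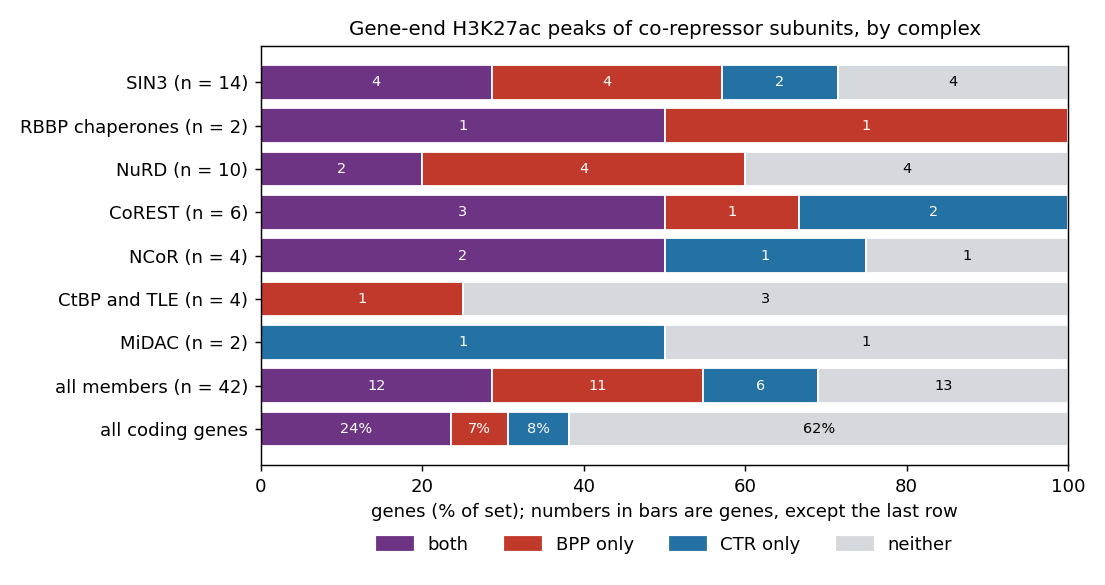
Share of genes with a gene-end H3K27ac peak in both lists, in BPP alone, in CTR alone or in neither (x axis, percent of the set), for each complex, for all 42 members and for all protein-coding genes. Numbers in the bars are genes, except in the last row. NuRD held 4 BPP-only genes and 0 CTR-only genes, against 7.03% and 7.57% of all genes. All 6 CoREST genes were marked in at least 1 list, against 38.2% of all genes. These calls changed with the setting.

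Each complex has few genes, and the counts describe them alone. Of all protein-coding genes, 23.6% were in both lists, 7.03% in BPP only and 7.57% in CTR only. SIN3 had 4 genes in both lists, 4 in BPP only, 2 in CTR only and 4 in neither. For NuRD the counts were 2, 4, 0 and 4. All 6 CoREST genes were marked, 3 of them in both lists, 1 in BPP only and 2 in CTR only. NCoR had 2 in both, 1 in CTR only and 1 in neither, and CtBP and TLE had 1 in BPP only and 3 in neither. The MiDAC pair had 1 gene in CTR only and 1 in neither. Calls depended on the setting. With windows of 500 bp, CHD4, MTA1 and MTA3 of NuRD and RCOR2 of CoREST were in neither list. With the top 5000 peaks of each list, GATAD2B joined CHD4, MTA1 and MTA3 in neither, as did RCOR1, KDM1A, HMG20B and PHF21A of CoREST.

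SIN3A and SIN3B are the alternative scaffolds of their complex. SIN3A was marked in both lists at the end of the span, where the peaks also touched the window around the start of MAN2C1, a neighbouring mannosidase gene. The BPP peak there had a fold of 3.08 at −log10 q 4.78 (chr15:75368782-75369069), and the CTR peak a fold of 5.61 at −log10 q 16.0 (chr15:75367775-75368788). Inside SIN3A, within 6 kb of the start of its span, BPP had 3 further peaks and CTR 2. A listed RefSeq start lies among them, inside the span. The nearest BPP peak lay 251 bp from that inner start and the nearest CTR peak 603 bp. By the rule for any RefSeq start, SIN3A was therefore marked in both lists. SIN3B had no gene-end peak in any list, but a broad interior peak stood in both, of 2310 bp in BPP (chr19:16874033-16876342; fold 4.06, −log10 q 20.0) and of 1756 bp in CTR (chr19:16874278-16876033; fold 4.74, −log10 q 25.4).

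The paralogues ARID4A and ARID4B, chromatin-binding subunits known as partners of RB, were marked differently. ARID4A had a BPP peak over its start with a fold of 8.06 at −log10 q 19.6 (chr14:58297743-58298819), in the top 8.65% of the BPP list. The nearest CTR peak lay 52.9 kb from its span and the nearest IgG peak 37.96 kb. This peak had the highest fold of any gene-end peak of a member in the lists. ARID4B had start-side peaks in both lists that begin at the same base, with a fold of 4.60 in BPP (chr1:235328314-235329197) and 5.58 in CTR (chr1:235328314-235328938). Both peaks lay 827 bp from the listed ARID4B start. Another protein-coding gene's start lies within 1 kb of the ARID4B start, and assignment of the peaks to ARID4B was not tested.

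Of the smaller SIN3 subunits, SAP30 and SAP30L, which bind deacetylase and DNA, were marked in BPP only. SAP30 had a fold of 4.15 at −log10 q 5.13 (chr4:173371508-173371937), and SAP30L a fold of 5.36 at −log10 q 6.95 (chr5:154445133-154445674). SUDS3, which helps hold the SIN3 core together, was marked in CTR only, with a fold of 4.26 at −log10 q 7.96 over its start (chr12:118376342-118376898), and its nearest BPP peak was 314 kb away. BRMS1, known as a suppressor of breast cancer metastasis, had a BPP peak of fold 3.01 at −log10 q 11.8 (chr11:66337224-66338325). It stood at the far end of BRMS1 and also touched the window around the start of RIN1, a neighbouring gene. The nearest CTR peak was 1.52 kb from the span, outside the window.

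BRMS1L, the paralogue of BRMS1, had overlapping start peaks in all 3 lists, and the part of background in its H3K27ac peaks was not tested. The folds there were 4.67 in BPP (chr14:35826323-35826674), 6.16 in CTR (chr14:35826362-35826800) and 4.06 in IgG (chr14:35826332-35826872). ING2, a reader of methylated histone H3, had a CTR peak of fold 3.73 at −log10 q 5.85 (chr4:183505416-183505962). IgG had a peak near each end of ING2, of fold 4.17 (chr4:183503915-183504484) and 3.58 (chr4:183512890-183513250), and neither overlapped the CTR peak. PHF12, a PHD-finger subunit, was marked before its start in both lists, with folds of 5.55 in BPP (chr17:28951819-28952452; −log10 q 17.7) and 4.46 in CTR (chr17:28951819-28952372; −log10 q 10.8). No gene-end or interior peak of any list was found for SAP18, SAP130 or the ING2 paralogue ING1.

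RBBP4 and RBBP7, WD40 proteins that bind histones for SIN3, NuRD and other complexes, differed in call. RBBP4 carried the highest −log10 q among members' gene-end peaks in each H3K27ac list, with 22.1 in BPP (fold 6.16, chr1:32650372-32651715) and 29.0 in CTR (fold 6.99, chr1:32650547-32651640). Both peaks also touched the window around the start of ZBTB8OS, so they cannot be assigned to RBBP4 alone. RBBP7 was marked in BPP only, with a fold of 5.00 at −log10 q 6.66 (chrX:16870804-16871181).

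**Figure D2:**
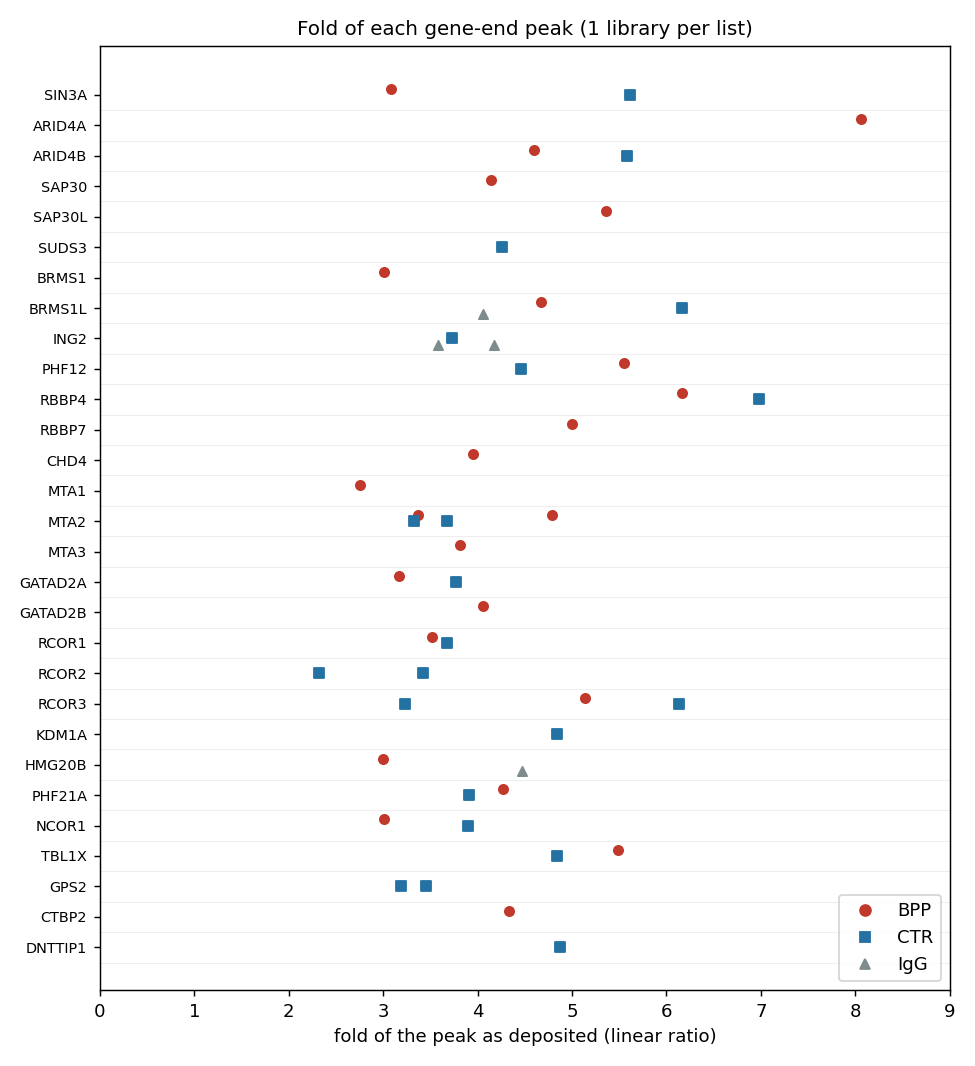
Fold of every gene-end peak as deposited (x axis, linear ratio) for the 29 members marked in BPP or CTR, with BPP as circles, CTR as squares and IgG as triangles. Points are peaks of 1 library per list and have no error bars. ARID4A has the highest fold, 8.06.

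In NuRD, the remodelling ATPase CHD4 was marked in BPP only, by a peak of fold 3.95 at −log10 q 7.95 (chr12:6605839-6606439) that ended 12 bp from its RefSeq start. CHD3, its paralogue, was unmarked by the gene-end rule. A BPP peak of fold 2.99 at −log10 q 7.24 (chr17:7885804-7886293) began 1008 bp inside the CHD3 span, just beyond the window. The listed start of CHD3 also lies inside the span. At that inner start BPP had a peak of fold 4.07 at −log10 q 16.0 (chr17:7887773-7889271) and CTR one of fold 3.77 at −log10 q 9.52 (chr17:7887801-7888781). CHD5, an ATPase best known from neurons, had only an interior BPP peak of fold 3.90.

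The MTA proteins are the NuRD scaffolds that hold HDAC1 or HDAC2. MTA1 was marked in BPP only, with a fold of 2.76 at −log10 q 5.14 (chr14:105418563-105419181), but a CTR peak began 1023 bp inside the gene, just beyond the window. MTA2 was marked at both ends in both lists. Its start-side peaks had folds of 3.37 in BPP (chr11:62601871-62602285) and 3.68 in CTR (chr11:62601322-62602381), and those at the far end folds of 4.79 in BPP (chr11:62591325-62592675; −log10 q 15.3) and 3.33 in CTR. All 4 peaks also touched windows of other genes, EML3 or TUT1. MTA3 had a BPP peak at its far end (fold 3.82, −log10 q 5.20, chr2:42755664-42756316) and another over its inner start (fold 4.70, −log10 q 9.71, chr2:42567743-42568363), neither overlapped by CTR.

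GATAD2A and GATAD2B bridge the MBD proteins to the CHD ATPase. GATAD2B was marked in BPP only, with a fold of 4.06 at −log10 q 9.04 (chr1:153923002-153923582). GATAD2A counted as marked in both, yet its peaks lay on different sides of the start and did not overlap. In BPP the summit was 617 bp after the start (fold 3.17, chr19:19386304-19386663), and in CTR 314 bp before it (fold 3.78, chr19:19385320-19385723). MBD2, which binds methylated CpG, had no peak in any list. MBD3 had an interior peak in both lists with its summit 1634 bp after the start, of fold 4.69 in BPP and 3.48 in CTR.

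**Figure D3:**
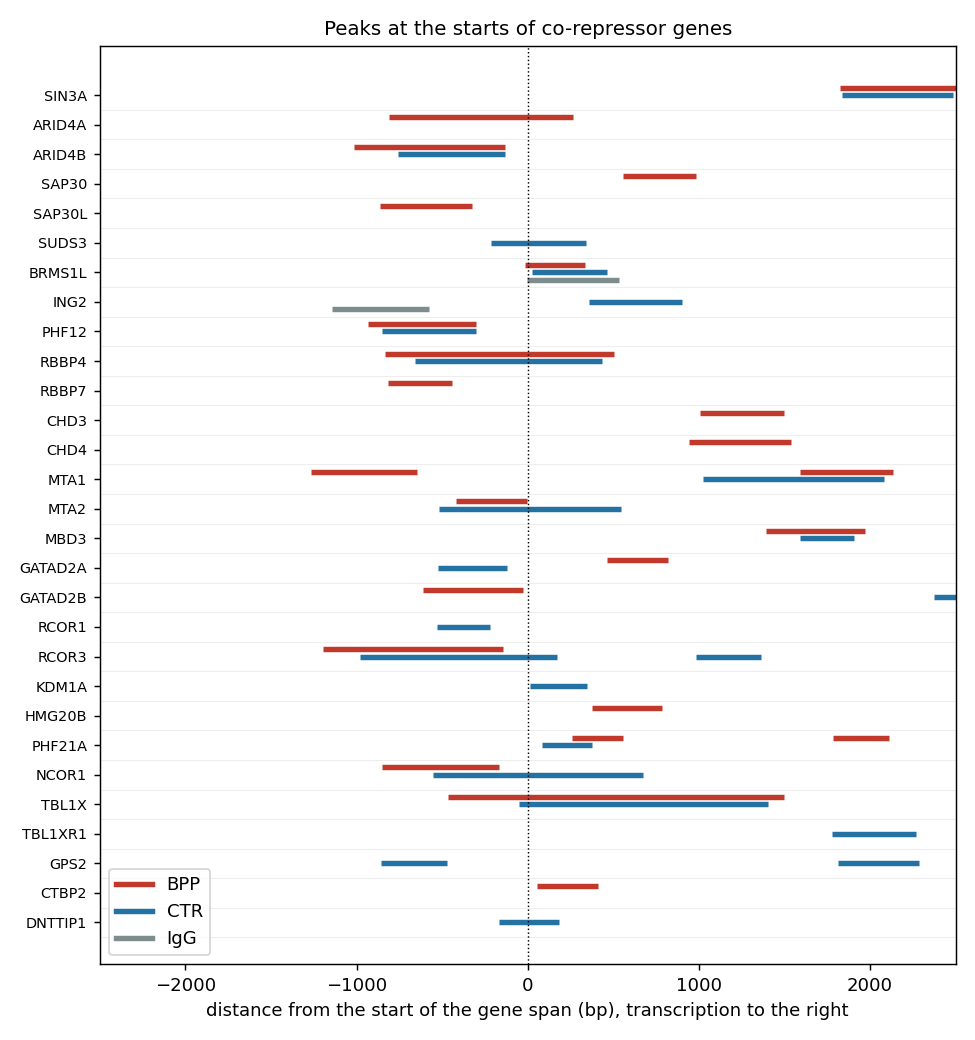
Peaks within 2.5 kb of the start of each member's span (x axis, bp from the start, with transcription to the right), for members with a known strand. BPP, CTR and IgG are drawn as separate lines per gene; in GATAD2A the BPP peak follows the start and the CTR peak precedes it, and in BRMS1L all 3 lists overlap.

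The CoREST scaffolds RCOR1, RCOR2 and RCOR3 hold the demethylase KDM1A beside the deacetylase. RCOR3 was marked in both lists, with a fold of 5.14 at −log10 q 17.0 in BPP (chr1:211258169-211259220) and a fold of 6.13 with −log10 q 26.95 in CTR (chr1:211258385-211259537). RCOR1 counted as marked in both, but at opposite ends of its 137.9 kb span. The BPP peak stood at the far end (fold 3.51, −log10 q 4.75, chr14:102731282-102732046) and the CTR peak at the start (fold 3.68, −log10 q 5.06, chr14:102592117-102592430). RCOR2 had CTR peaks of fold 3.43 at −log10 q 10.1 (chr11:63909745-63910347) and of fold 2.32 at −log10 q 3.38 (chr11:63911780-63912071) near its lower-coordinate end, both within reach of MARK2.

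KDM1A, which removes methyl groups from histone H3 lysine 4, was marked in CTR only. Its peak had a fold of 4.84 at −log10 q 6.33 (chr1:23019480-23019812), and the nearest BPP peak lay 56.2 kb from the span. HMG20B, an HMG-box subunit, had a BPP peak of fold 2.998 at −log10 q 3.73 (chr19:3573320-3573727) and an IgG peak of fold 4.47 at its far end (chr19:3578116-3578524). PHF21A, which reads unmethylated lysine 4, had overlapping start peaks with folds of 4.27 in BPP (chr11:46120900-46121196) and 3.91 in CTR (chr11:46121078-46121370).

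NCOR1, the scaffold that activates HDAC3, was marked at its start in both lists, with folds of 3.01 in BPP (chr17:16215702-16216387; −log10 q 6.27) and 3.90 in CTR (chr17:16214862-16216085; −log10 q 14.3). The BPP peak also touched the window around the start of PIGL. TBL1X, a WD40 subunit of the complex, had broad start peaks of 1963 bp in BPP (fold 5.48, −log10 q 21.1, chrX:9462829-9464791) and 1456 bp in CTR (fold 4.84, −log10 q 12.6, chrX:9463244-9464699). TBL1XR1, its paralogue, had interior peaks alone. GPS2, the smallest gene of the list with a span of 2.70 kb, had CTR peaks at both ends. They had folds of 3.19 at the start (−log10 q 4.31, chr17:7315831-7316216) and 3.45 at the far end (−log10 q 5.79, chr17:7313074-7313548), and each touched a window of another gene, NEURL4 or EIF5A.

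CTBP2, a co-repressor related to dehydrogenases, had a BPP peak of fold 4.33 at −log10 q 6.53 (chr10:125162051-125162409) at the start of its span. That peak lay 1021 bp from the nearest RefSeq start, so CTBP2 was unmarked by the rule for any RefSeq start. CTBP1 had interior peaks only, 2 in BPP and 2 in CTR, and none of them overlapped between lists. TLE3 had 1 interior BPP peak (fold 2.90), and TLE1 had no peak of any list within its span or windows; its nearest H3K27ac peaks were 1934 kb away in both BPP and CTR. In MiDAC, DNTTIP1, which forms its dimeric core, was marked in CTR only (fold 4.87, −log10 q 6.09, chr20:45791789-45792137) in a window shared with WFDC3. A BPP peak lay 1.12 kb beyond the far end of DNTTIP1, and an IgG peak lay 1.10 kb from its span. MIDEAS, the MiDAC scaffold, had interior peaks alone.

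Overlap of the peaks themselves was also counted. Of the members' 24 distinct BPP gene-end peaks 11 overlapped a CTR peak (45.8%), and 11 of their 22 CTR peaks overlapped a BPP peak (50%); for all protein-coding genes the shares were 69.9% of 5426 and 69.6% of 5396. The median fold of the members' peaks was 4.21 in BPP, against 4.89 for all gene-end peaks, and 3.90 in CTR, against 5.16. Peaks were then split at a −log10 q of 10, a value chosen after seeing the data. At 10 or more, 6 of 8 BPP peaks and 9 of 10 CTR peaks of members overlapped the other list, against 91.8% and 85.1% of all such peaks. Under 10, 5 of 16 BPP peaks and 2 of 12 CTR peaks did, against 52.5% and 57.2%. The exceptions at 10 or more were ARID4A and BRMS1 in BPP and RCOR2 in CTR. The part of peak strength in the overlap was not tested.

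Start-side placement was found for 19 of 24 BPP peaks, with the other 5 at the far end. In CTR 17 of 22 were on the start side, 3 at the far end and 2 at RCOR2, whose strand was not given. Start-side summits fell before the start of the span in 11 of 19 BPP and 9 of 17 CTR peaks. Their median distance from the start was 617 bp in BPP and 314 bp in CTR. Another protein-coding gene's window was touched by 6 BPP peaks out of 24 and by 9 CTR peaks out of 22 (25.0% and 40.9%, against 22.8% and 21.9% of all gene-end peaks).

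Inside the genes, outside the end windows, BPP had 73 peaks in 22 members, CTR 47 in 19 and IgG 5 in 5. The shares of members with an interior peak were 52.4% in BPP, 45.2% in CTR and 11.9% in IgG, where 23.0%, 17.8% and 12.8% of all protein-coding genes had one. Members are long genes, with a median span of 50.5 kb against 24.2 kb for all. Per 100 kb of span they held 2.37 BPP, 1.53 CTR and 0.162 IgG peaks, against 0.662, 0.459 and 0.258 over all genes. The ratio of BPP to CTR interior peaks was 1.55 in members and 1.44 over all genes, which are close, so it is no feature of the members. BPP had more interior peaks in 15 members and CTR in 5, that is 75.0% of the 20 with unequal counts, against 70.0% of such genes in all.

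**Figure D4:**
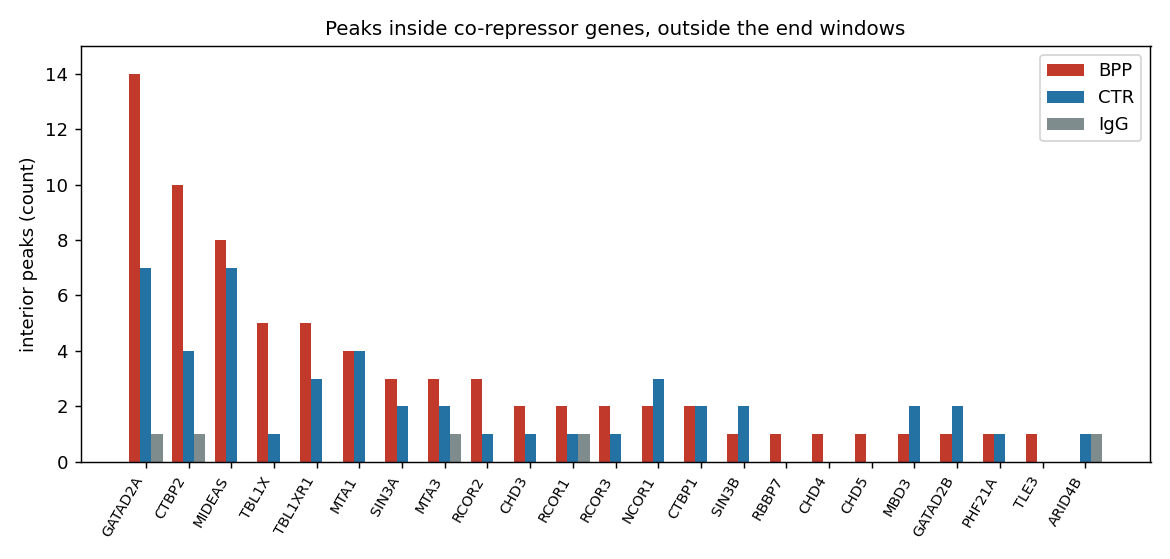
Number of peaks inside each member's span and outside its end windows (y axis, count), with BPP, CTR and IgG bars side by side, for the 23 members with any. GATAD2A has 14 in BPP and 7 in CTR, CTBP2 10 and 4, and MIDEAS 8 and 7; IgG has at most 1.

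Overlap of interior peaks between the lists was close to that of the genome. It was found for 28 of the members' 73 BPP peaks (38.4%, against 38.0% over all genes) and 28 of their 47 CTR peaks (59.6%, against 54.0%). The per-gene overlaps that follow describe single genes.

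GATAD2A, CTBP2 and MIDEAS held 32 of the 73 BPP and 18 of the 47 CTR interior peaks. Without them the members had 41 BPP, 29 CTR and 3 IgG peaks, a BPP to CTR ratio of 1.41. GATAD2A had 14 in BPP (6.16 kb in all, folds 2.34 to 3.84), 7 in CTR (3.83 kb, folds 2.48 to 4.00) and 1 in IgG. By count, not adjusted for its span of 123.1 kb, it held rank 19 of all protein-coding genes in BPP and rank 39 in CTR. As many or more interior peaks were found in 20 genes in BPP and 52 in CTR. Overlap joined 6 of the 14 BPP peaks of GATAD2A to CTR peaks and 6 of its 7 CTR peaks to BPP peaks. Peaks of all 3 lists overlapped at 1 place in GATAD2A (chr19:19460014-19460796 in BPP, chr19:19460404-19460870 in CTR and chr19:19460097-19460510 in IgG).

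CTBP2 had 10 interior peaks in BPP (folds 2.95 to 3.94), 4 in CTR (folds 2.998 to 3.49) and 1 in IgG, spread over a span of 178.1 kb. Overlap with the other list was found for 1 peak of each H3K27ac list. MIDEAS, at 75.2 kb, had 8 in BPP, 7 in CTR and none in IgG, and 5 peaks of each list overlapped the other list. TBL1X had 5 in BPP and 1 in CTR, none of them overlapping, whereas MTA1 had 4 in each. TBL1XR1 had 5 in BPP and 3 in CTR, among them a peak called with the same borders in both lists (chr3:177041214-177041802; fold 6.38 in BPP and 4.68 in CTR).

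**Figure D5:**
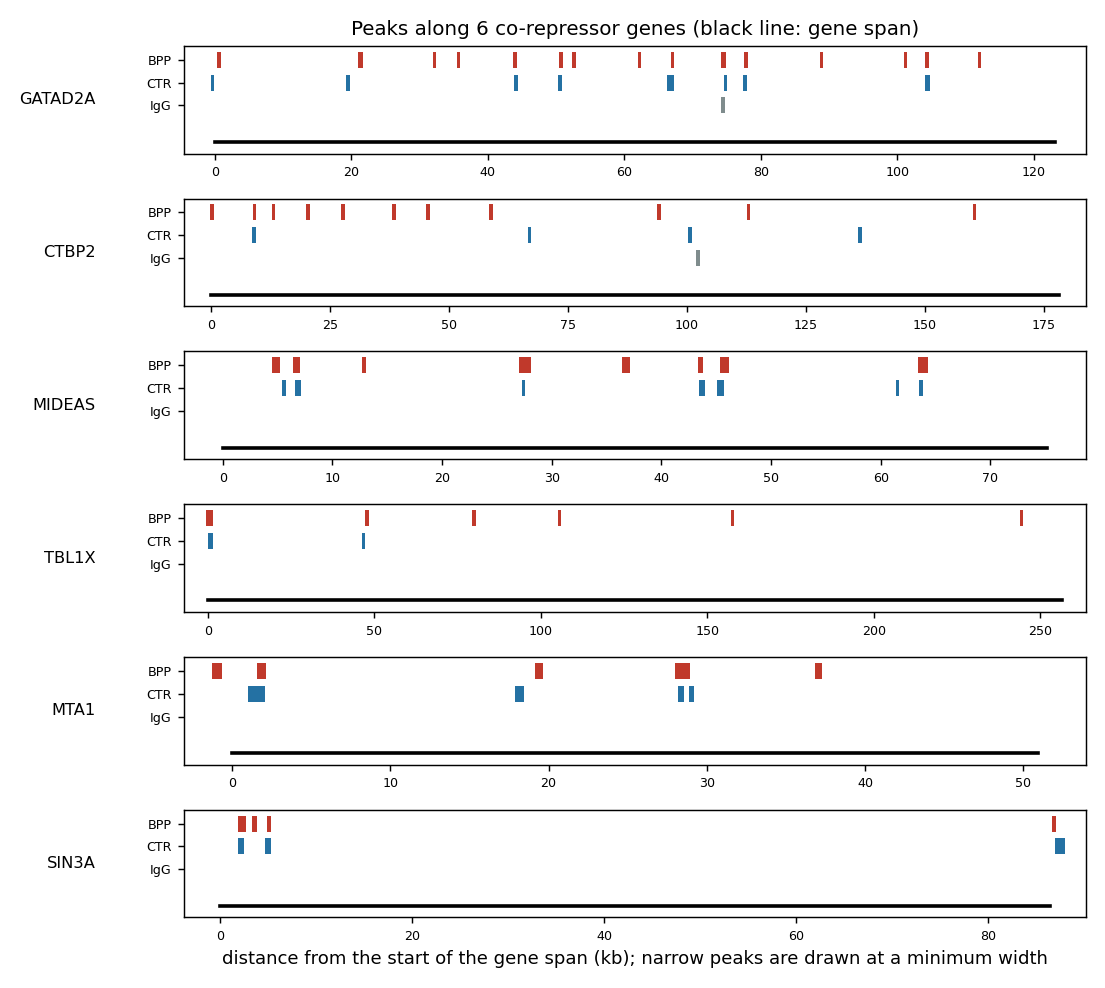
Peaks along 6 members (x axis, kb from the start of the span; black line, gene span), with BPP above CTR and IgG. Narrow peaks are drawn at a minimum width. GATAD2A and CTBP2 have more BPP than CTR peaks, while SIN3A has its peaks near the start and at the far end.

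Other genes of these pathways were read from a list of 28 partners. Of these, 16 were marked in BPP (57.1%, against 30.6% of all genes) and 12 in CTR (42.9%, against 31.2%). By list, 10 were marked in both (35.7%, against 23.6% of all genes), 6 in BPP only (21.4%, against 7.03%), 2 in CTR only (7.14%, against 7.57%) and 10 in neither. HDAC2, a deacetylase of SIN3, NuRD and CoREST, had start peaks with folds of 12.3 in BPP and 10.7 in CTR. HDAC1 was marked at its far end, with folds of 3.23 in BPP and 3.202 in CTR. These peaks did not overlap each other, and both lay in a window of MARCKSL1, a neighbouring gene. The class I deacetylase HDAC3 had no gene-end peak. SINHCAF, a SIN3 subunit, had folds of 5.66 in BPP and 5.11 in CTR, and MORF4L1, a chromodomain protein, 7.44 and 7.34 in the same order of lists. Partners marked in BPP only included ZMYM3, ZNF217, MIER2, MIER3 and TLE5, and the 2 in CTR only were ZMYM2 and TRERF1. At MIER2 a CTR peak overlapped the BPP peak and lay 900 bp from the nearest RefSeq start, but outside the window at the end of the span. TLE5 also had an IgG peak at its start, of fold 5.39.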

How the data were processed

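CUT&Tag peak lists of 3 libraries were analysed, grouped by sample title with 1 library per group. The submitters' processing notes name the tools Bowtie2 2.4.1, deepTools 3.3.0 and fastp, and the build GRCh38.p13. The sources do not name the peak caller or say whether IgG served as its control. Each library has its own deposited list. The deposited score is the −log10 p multiplied by 10 and rounded down, the deposited fold is a ratio over an undescribed background, and the −log10 p and −log10 q are deposited per peak, with no −log10 p below 5. The deposited summit offset was used as given. Depth is unknown, because the files hold no read counts, so precision per peak could not be stated.

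Only chromosomes 1 to 22 and X were analysed, leaving out 28 BPP, 37 CTR and 14 IgG peaks. Gene spans and promoters came from NCBI RefSeq tables of GRCh38.p14, and strand and starts from the promoter table, which covered 15811 of the 19970 genes. The overlap step was tested on simulated data against bedtools 2.31.1. Python 3.11.15, numpy 2.4.6, pandas 2.3.3, statsmodels 0.14.6 and matplotlib 3.10.9 were used. The members, the complexes, the partner list and the rule for named genes (single-list members, members with an IgG gene-end peak and the strongest of each complex in full) were chosen with earlier results of these data known. That rule asked for more promoters than are printed; they were limited to the highest −log10 q. The values of 1 partner gene are not reported here. The alternatives changed windows, filters, list length, assignment and treatment of IgG peaks.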

Additional observations from a re-analysis of the deposited data

How the results depend on the processing

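Main counts were 12 members in both H3K27ac lists, 11 in BPP only, 6 in CTR only and 3 in IgG. With peaks of fold 5 or more they were 2, 5, 3 and 0. With the top 5000 peaks of each list, 6 were in both and 2 in BPP only, against 4 in CTR only. Of the 10 settings that recomputed both single-list counts, that was the only one with more CTR-only than BPP-only members. IgG marked 5 members in windows of 2 kb, 0 when −log10 q had to reach 5, and 1 within 1 kb of any RefSeq start. The other counts stayed within 1.5 times. Settings for any RefSeq start, for the same gene end and for peaks shared with another gene were chosen after seeing the data. The cause of these differences was not tested. A −log10 q of 5 keeps 13751 BPP, 11273 CTR and 337 IgG peaks, and a fold of 5 keeps 5964, 6012 and 1648, so these filters need not be equally strict. No paired analysis was possible because each group has 1 library. Depth is unknown and limits every statement that a peak is missing from a list.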

Other observations

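Partner genes also held interior peaks, with 98 in BPP, 58 in CTR and 12 in IgG over 28 genes with a summed span of 2871 kb. An interior peak was found in 64.3% of partners in BPP, 50% in CTR and 25% in IgG, against 23.0%, 17.8% and 12.8% of all genes. Over all genes the ratio of BPP to CTR interior peaks was 1.44, so single-gene counts with more in BPP are not read as a feature of these genes. GSE1, a CoREST-associated protein with a span of 506.7 kb, had 21 in BPP, 13 in CTR and 2 in IgG. ZMYND8, a reader linked to NuRD, had 10 in BPP and 5 in CTR, and FOXK2, a SIN3-binding forkhead factor, 9 and 4. MIER2 had 4 in BPP and 5 in CTR. TLE2 had 3 in BPP and none in CTR or IgG.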
